A study of Mus musculus with 435 samples.

Results

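The cell division and DNA replication genes described here were chosen by symbol alone. They are the cyclins A, B, D, E and G, the cyclin-dependent kinases (Cdk) and the proteins named with them, the numbered Cdc genes, the Mcm, Orc, Rfc and Pold subunits, the Bub, Aurk and Cenp genes, and Melk, Knl1 and Pcna. On the arrays 112 probes matched, and 100 probes of 96 genes were measured on at least 100 arrays, out of 12505 probes and 11633 genes measured that often. Just inside that limit lay Ccne1, measured on 24.02% of the arrays, and Ccna2, on 24.94%, and just outside it lay Cenps, on 22.63%.

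The arrays compared liver RNA of mice fed high-fat or low-fat diets at weeks 1, 3 to 7 and 9 to 11, in the inbred strains C57 and A/J, which gave 36 groups of 8 to 10 arrays and 350 arrays in all. Liver RNA was labelled with Cy5 and hybridised against Cy3-labelled RNA pooled from 10 C57 tissues, of which liver was 1, per the labels. The labels name no transgene and give neither age nor sex, and do not say whether each array came from a separate mouse, so p-values measure the spread between weekly means and nothing wider. All values below are log2 ratios of liver over that pool, centred so that 0 is the median probe of each array. A value below 0 is therefore low against the median probe and not a sign that a transcript is absent. Week 8 and week 0 are outside the main comparisons, week 8 because 28 arrays of that week did not resemble the rest. Hepatocyte genes checked the tissue, since all 7 of those tested lay above 0 in every strain and diet, with their mean levels given below.

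A cell that divides first licenses its origins of replication, where the Mcm helicase is loaded onto DNA with the help of the origin recognition complex. It then copies its DNA with the sliding clamp Pcna and polymerase delta, and then separates its chromosomes by attaching kinetochores to the spindle. Cyclins and their kinases time these steps, and the anaphase-promoting complex ends mitosis by marking its targets for destruction. Hepatocytes of the adult liver are mostly quiescent and re-enter this cycle after injury or loss of tissue. Several Cdc symbols carry genes with other roles, among them Cdc42 and the splicing factor Cdc40, and some Cdk symbols carry neuronal or transcriptional kinases such as Cdk5 and Cdk7.

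The promoters of such genes are known for E2F sites, which act mainly on genes of the replication phase, and for cell cycle homology regions (CHR), which act mainly on genes of mitosis, often together with CCAAT boxes. The letters TTTGGCGC or TTTCCCGC for E2F, TTTGAA for CHR and CCAAT were searched on both strands in RefSeq windows of 300 bases on build GRCm38.p6, from 250 bases before each gene's start. Of the 96 genes 85 had a window, and some had several. E2F letters were in 13.9% of these windows and in 1.56% of all 32851 promoter windows. CHR letters were in 19.8% against 17.9%, CCAAT letters in 55.4% against 37.4%, and CHR with CCAAT in 11.9% against 6.95%. Matches of different motifs shared a base in 1 case among the member windows. The 120 bases before the start are shown 5′ to 3′ for the helicase subunit gene Mcm6, an E2F example, for Cdk1 and Cdc20, CHR examples from mitosis, and for Melk and Cdk11b, on which results below turn. Capitals mark the letters searched, on either strand.
Mcm6, chr1:128359706-128359825, strand -: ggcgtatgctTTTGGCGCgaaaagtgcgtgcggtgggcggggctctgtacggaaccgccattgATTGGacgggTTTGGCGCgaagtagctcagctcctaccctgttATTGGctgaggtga
Cdk1, chr10:69352913-69353032, strand -: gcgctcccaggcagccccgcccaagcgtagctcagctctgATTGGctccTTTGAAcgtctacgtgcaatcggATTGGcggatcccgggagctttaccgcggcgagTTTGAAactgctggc
Cdc20, chr4:118437344-118437463, strand -: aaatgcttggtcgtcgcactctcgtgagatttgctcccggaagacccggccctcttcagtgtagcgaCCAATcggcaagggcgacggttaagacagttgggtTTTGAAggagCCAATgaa
Melk, chr4:44300797-44300916, strand +: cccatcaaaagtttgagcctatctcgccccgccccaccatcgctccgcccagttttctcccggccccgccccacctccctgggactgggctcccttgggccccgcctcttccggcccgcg
Cdk11b, chr4:155624734-155624853, strand +: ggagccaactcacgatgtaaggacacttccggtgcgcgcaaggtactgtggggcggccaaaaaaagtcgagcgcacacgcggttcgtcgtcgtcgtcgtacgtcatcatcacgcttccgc
The Mcm6, Cdk1 and Cdc20 stretches held 4, 4 and 3 matches, while those of Melk and Cdk11b held 0. That says only that these letters are not in these stretches.

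By role, the 100 probes fell into 10 for cyclins, 17 for Cdks and their partners, 20 for licensing and origin firing, 10 for the clamp, its loader and polymerase delta, 23 for the kinetochore, the spindle checkpoint and mitotic kinases, 8 for the anaphase-promoting complex and the Cdc25 and Cdc14 phosphatases, and 12 for other Cdc symbols. Many were measured too rarely to test: 54 probes of 53 genes passed the filter of 70% of arrays and 3 arrays in every group, which 7643 probes passed in all, and 46 did not. The 46 include Ccna1, Ccna2, Ccne1, Ccne2, Cdk2, Mcm4 to Mcm6, Cdc6, Bub1, Aurka, Cenpa and Cenpf. For 3 of the 100 probes, or 3%, the share of arrays with a value was under 10% in weeks 1 to 4 and at least 25% later, against 3.28% of all probes. They were Ccne1, with a value on 1.68% of early and 38.1% of later arrays, Mcm6, with 2.52% and 61%, and Rfc3, a clamp loader subunit, with 7.56% and 44.6%. Other untested probes went the other way, among them Pold1 with 70.6% early and 17.3% later, Ccna1 with 90.8% and 35.1%, and Aurka with 58% and 18.2%. Such losses were not counted by a rule over all probes, so gains and losses cannot be weighed against each other here. The slopes given below leave out untested probes, whether they gained or lost values with time.

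Most tested members lay below the median probe. Over the 36 group means 38 of 54 probes, or 70.4%, averaged below 0, against 59.6% of all probes tested. Among the cyclins, Ccnd3, a D-type cyclin that partners Cdk4 and Cdk6, had weekly means of 0.53, 0.85 and 1.37 (lowest, median and highest of 9 weeks) in C57 mice on high-fat, 0.42, 0.74 and 1.26 in C57 mice on low-fat, 0.23, 0.94 and 1.20 in A/J mice on high-fat and 0.26, 0.72 and 0.99 in A/J mice on low-fat. Ccnd3 was thus above the median probe in every group, and its ranges overlapped between diets and strains. Pcna was on the other side: its weekly means had medians of -0.73 in C57 mice on high-fat, -0.66 in C57 mice on low-fat, -0.61 in A/J mice on high-fat and -0.72 in A/J mice on low-fat. Pcna passed 0 in a single group, with 0.05 as the highest weekly mean in A/J mice on high-fat. Averages over all groups were also above 0 for the D-type cyclin Ccnd2 (0.44), the polymerase delta subunit Pold3 (0.36), the kinetochore gene Cenpu (0.19) and the phosphatase gene Cdc25a (0.22), and near 0 for Mcm3 (0.09), Cdc25c (0.12) and the mitotic kinase Aurkb (0.01).

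**Figure D1:**
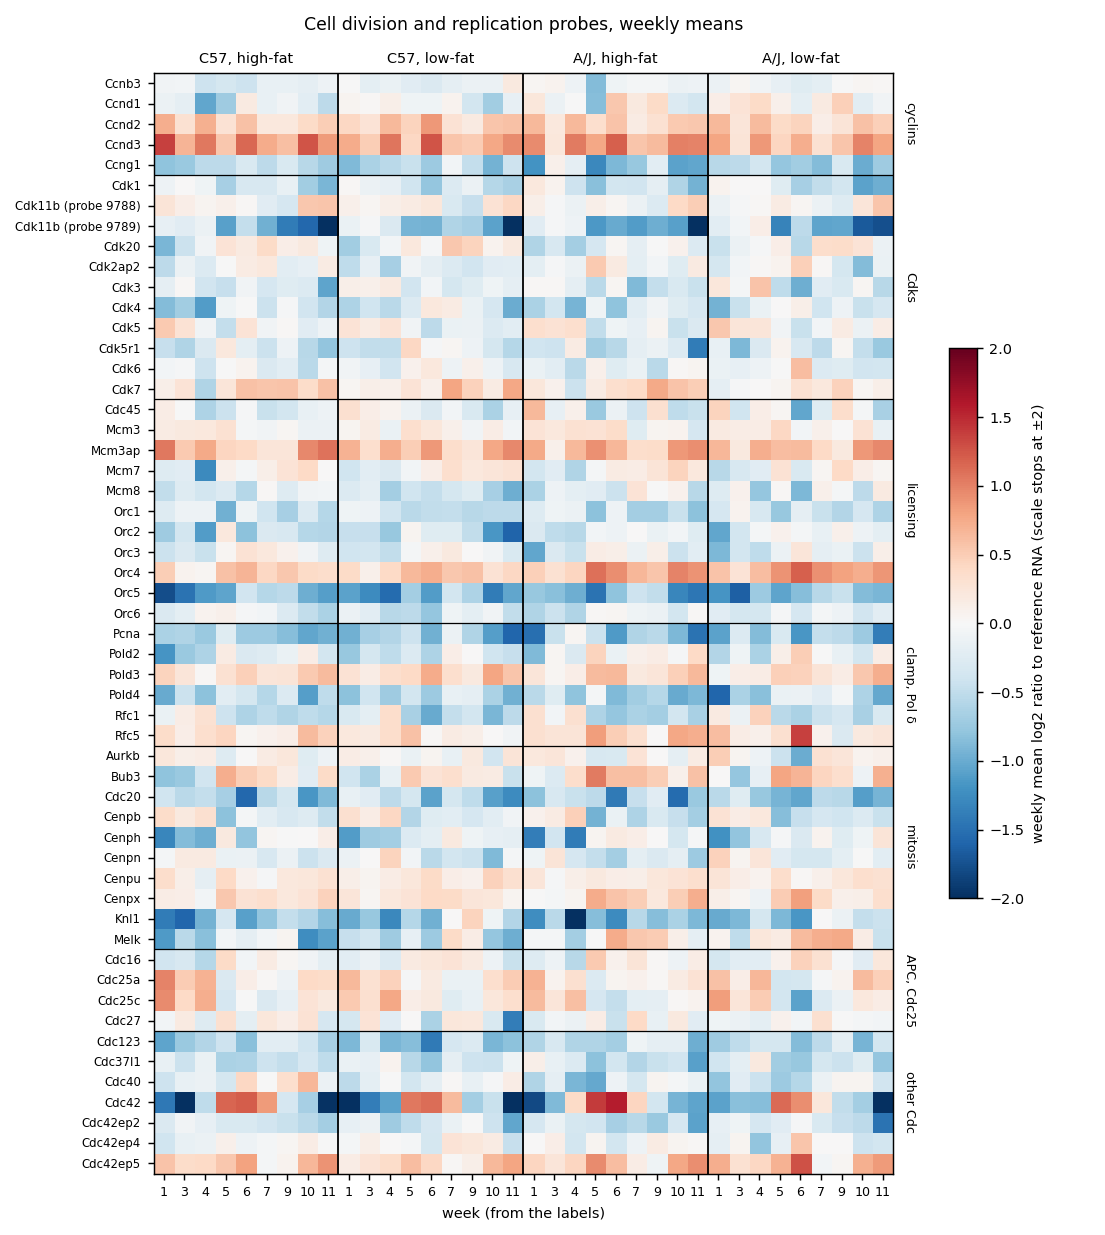
Weekly mean log2 ratio of liver over the reference pool for the 54 probes tested, by role (rows) and by strain, diet and week (columns); red is above and blue below the median probe of an array. Rows differ in overall colour, columns of the same week resemble each other across the 4 panels, and Cdk11b appears as 2 rows that do not look alike.

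Week held the greater part of the variation between groups. Of the sum of squares of the 36 group means, week took a median of 59.5% over the 54 members and 60.0% over all probes tested. Strain took 1.36% against 1.57% and diet 0.53% against 0.77%. Week has 8 degrees of freedom, or 22.9% of the total, while strain and diet have 1 each, or 2.86%. The members did not move as a block: their median pairwise correlation over the 36 group means was -0.0008, against 0.010 over all probes, given as a description since all probes share the arrays. Each week holds arrays of all 4 combinations of strain and diet, but week, age of the mice and date of array processing cannot be told apart, because the labels give no processing date.

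Whether the diet moved these genes was asked within each strain, and high-fat moved no member past the threshold in either strain. In C57 mice 0 of 54 had a Benjamini-Hochberg adjusted limma p under 0.05, where 0.196% of all 7643 probes did, and 4 had an unadjusted p under 0.05 (7.41%, against 6.32% of all probes). In A/J mice 0 of 54 passed, where 0.0262% of all probes did, and 4 had an unadjusted p under 0.05 (7.41%, against 5.42%). The differences, high-fat minus low-fat, were positive for 26 and negative for 28 probes in C57 mice, with a median of -0.01 against 0.00 over all probes. In A/J mice they were positive for 22 and negative for 32, with a median of -0.02 against -0.01 over all probes. By role, of 11 licensing probes 7 were positive in C57 and 5 in A/J mice, and of 11 Cdk probes 3 and 4 were positive.

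Knl1, the scaffold of the outer kinetochore, had the most negative estimate in both strains. Its weekly means were -1.58, -0.85 and -0.34 (lowest, median, highest) in C57 mice on high-fat and -1.29, -0.58 and 0.44 in C57 mice on low-fat. In A/J mice they were -2.13, -0.85 and -0.55 on high-fat and -1.17, -0.48 and 0.01 on low-fat. High-fat was below low-fat in 7 of 9 weeks in each strain, with ranges that overlap, and the difference was -0.36 ± 0.15 (SE, limma, adjusted p 0.696) in C57 and -0.40 ± 0.15 (limma, adjusted p 0.820) in A/J. In A/J mice week 4 alone differed by -1.78, with a mean of -2.13 on high-fat against -0.35 on low-fat.

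No other member at the ends of the ranking passed either. In C57 mice the positive end held Cdc27, a subunit of the anaphase-promoting complex, at 0.28 ± 0.11 (limma, adjusted p 0.601), Mcm8 at 0.22 and Cdk2ap2 at 0.21, and the negative end held Cdk3 at -0.23 and the D-type cyclin Ccnd1 at -0.19 beside Knl1. In A/J mice the positive end held Cdc42 at 0.31 ± 0.19 (limma, adjusted p 0.972), Ccnd3 at 0.19 and Cdk7, the Cdk-activating kinase, at 0.18, and the negative end held Cdk20 and the kinetochore gene Cenpn, both at -0.24. Cdc27 had weekly medians of 0.13 on high-fat and -0.22 on low-fat in C57 mice, where week 11 on low-fat was its lowest value, -1.38. In the limma test of whether the diet difference differed between strains 0 of 54 passed, as did 0% of all probes, and 2 members had an unadjusted p under 0.05 (3.70%, against 2.67%). Both were more positive in C57, Cenpn by 0.34 ± 0.15 and Cdc27 by 0.32 ± 0.16 (limma, adjusted p 1.00 each). Next came Rfc1 at 0.21, and the negative end held Cdk7 at -0.19, Mcm7 at -0.18 and Cdc42 at -0.17.

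**Figure D2:**
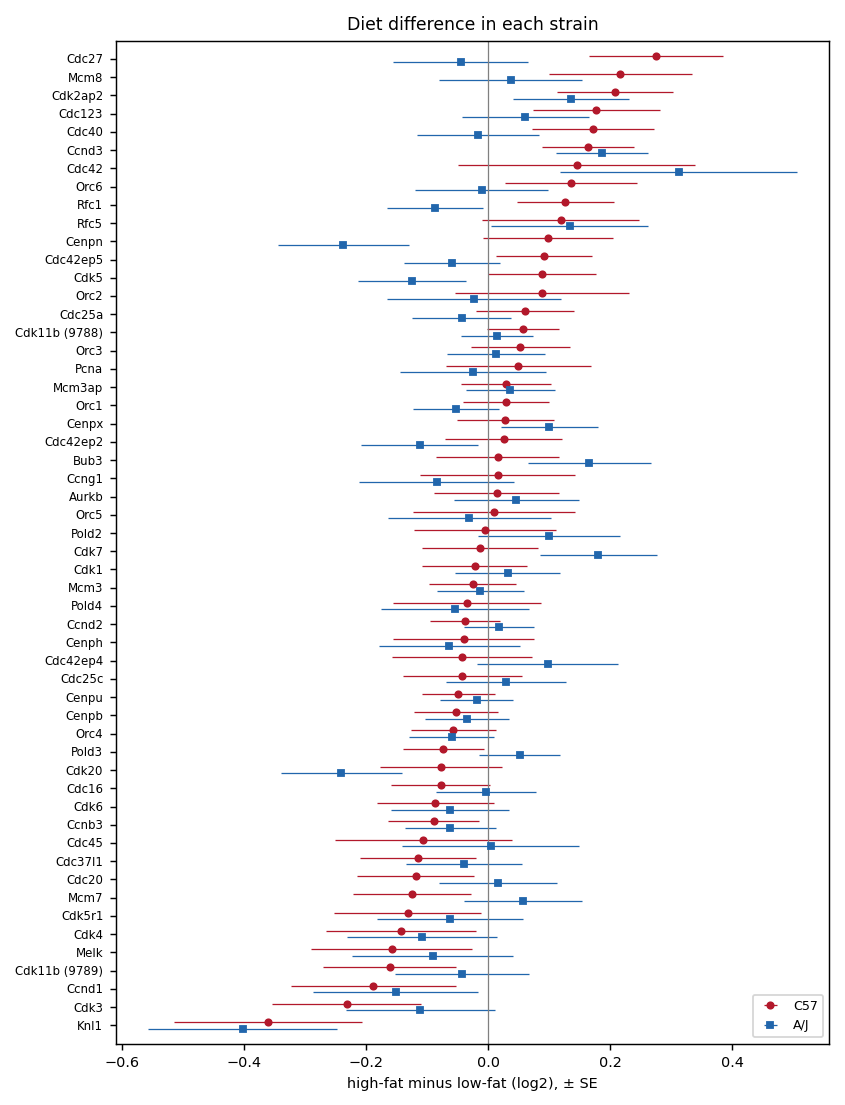
High-fat minus low-fat difference in log2 ratio (x axis, ± SE from limma over 9 weeks) for each tested probe, in C57 (red circles) and A/J (blue squares) mice. Most bars cross or nearly reach 0 and Knl1 lies lowest in both strains, at -0.36 and -0.40.

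Strain separated 2 members, both lower in C57 mice. On low-fat 2 of 54 had an adjusted p under 0.05 (3.70%), where 2.39% of all probes did, 0.864% as lower in C57, and 12 had an unadjusted p under 0.05 (22.2%, against 11.7%). The estimates, C57 minus A/J, were positive for 28 probes and negative for 26, with a median of 0.01 against 0.00 over all probes. Of the 183 probes past the threshold 117 were higher and 66 lower in C57 mice, and without centring the split was 143 and 35.

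Melk, a maternal embryonic leucine zipper kinase that is most abundant in dividing cells, was the larger of the pair. On low-fat its weekly means were -0.97, -0.46 and 0.38 (lowest, median, highest) in C57 mice and -0.51, 0.16 and 0.77 in A/J mice. C57 was lower in 8 of 9 weeks, although the ranges overlap, and the difference was -0.61 ± 0.13 (SE, limma, adjusted p 0.00604), or 1.52-fold lower. On high-fat its weekly means were -1.25, -0.54 and 0.05 in C57 mice and -0.68, 0.00 and 0.75 in A/J mice. There C57 was lower in all 9 weeks, with a difference of -0.67 ± 0.13 (limma, adjusted p 0.00166). Melk had a value on 66 of 88 arrays of C57 mice on high-fat, against 77 of 87, 79 of 87 and 79 of 88 in the A/J high-fat, C57 low-fat and A/J low-fat arrays. At week 0, which was outside the fits, Melk averaged -0.69 in C57 and -0.15 in A/J arrays labelled high-fat, and -0.01 in C57 and 0.08 in A/J arrays labelled low-fat.

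Orc4, a subunit of the origin recognition complex, was lower in C57 mice by a smaller amount. On low-fat its weekly means were 0.10, 0.41 and 0.73 (lowest, median, highest) in C57 mice and 0.28, 0.81 and 1.20 in A/J mice. C57 was lower in 9 of 9 weeks, with a difference of -0.32 ± 0.07 (SE, limma, adjusted p 0.00740), or 1.24-fold lower, with overlapping ranges. On high-fat they were 0.04, 0.41 and 0.68 in C57 and 0.31, 0.67 and 1.10 in A/J mice, a difference of -0.31 ± 0.07 (limma, adjusted p 0.00580) that held in 8 of 9 weeks. Without centring, the low-fat difference of Orc4 was -0.26 and its adjusted p 0.0648 (limma). The other Orc4 probe, measured on fewer arrays, did not pass the filter and averaged -0.09 in C57 and 0.06 in A/J mice on low-fat, and -0.29 and 0.01 on high-fat. Under the looser filter of 50% of arrays and 2 per group its low-fat difference was -0.13 ± 0.15 (limma, adjusted p 0.807), which is within its error. At week 0 Orc4 averaged 0.06 in C57 and 0.30 in A/J arrays labelled high-fat, and 0.48 and 0.34 in those labelled low-fat.

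**Figure D3:**
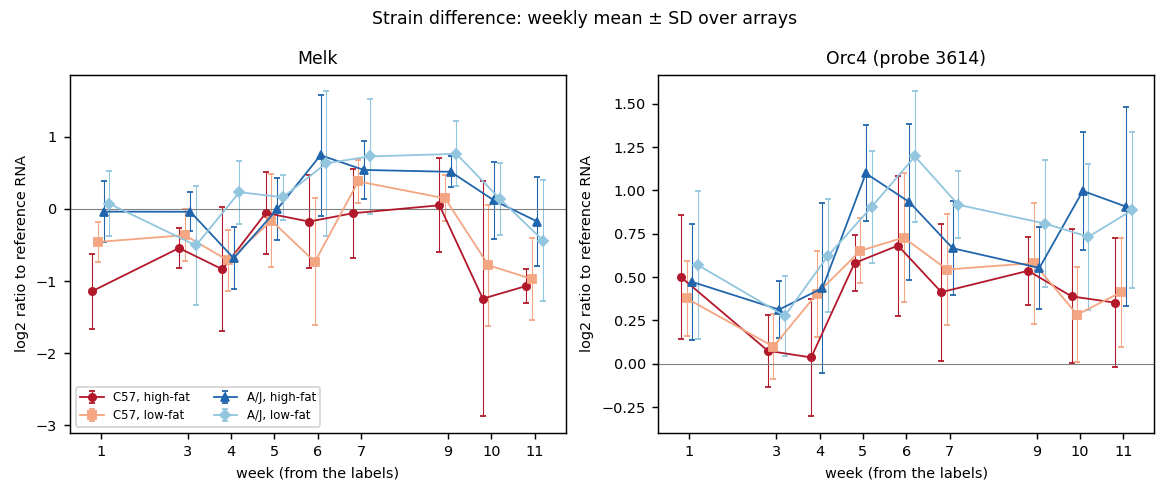
Weekly mean log2 ratio ± SD over arrays of Melk (left) and of the tested Orc4 probe (right), against week, for C57 (reds) and A/J (blues) on high-fat and low-fat. The C57 lines run below the A/J lines in most weeks, by 0.61 for Melk and 0.32 for Orc4 on low-fat.

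On high-fat, a comparison added after the data had been seen, 4 of 54 passed (7.41%), where 3.94% of all probes did, 1 of the 4 as higher in C57 (2.75% of all probes) and 3 as lower (1.19%). Of the 54, 8 had an unadjusted p under 0.05 (14.8%, against 15.2%). Beside Melk and Orc4 they were Bub3, a spindle checkpoint protein, and Cdc40, the splicing factor. Bub3 had weekly means of -0.80, 0.15 and 0.73 in C57 mice and -0.28, 0.50 and 1.04 in A/J mice on high-fat, and was lower in C57 in all 9 weeks, with a difference of -0.38 ± 0.10 (limma, adjusted p 0.0242). Cdc40 had -0.41, -0.11 and 0.66 in C57 mice and -1.02, -0.18 and 0.06 in A/J mice, and was higher in C57 in all 9 weeks, by 0.39 ± 0.10 (limma, adjusted p 0.0172). On low-fat the same differences were -0.23 ± 0.10 for Bub3 (limma, adjusted p 0.348) and 0.21 ± 0.10 for Cdc40 (limma, adjusted p 0.427). The change of the strain difference with diet passed the threshold for none of the 4, and ran from -0.15 ± 0.14 for Bub3 to 0.19 ± 0.14 for Cdc40 (limma, adjusted p 1.00 each). On low-fat the ends of the ranking also held Orc2, at -0.41 ± 0.14 (limma, adjusted p 0.179) and lower in C57 in 8 of 9 weeks, and on the positive side Cdc25c at 0.22, Cdc40 at 0.21 and Cdk7 at 0.20. On high-fat they held Pold2 at -0.34 ± 0.12 (limma, adjusted p 0.105) and, on the positive side, Cdk20 at 0.22 and Cenpn at 0.18.

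The slopes against week asked whether these genes fell with time on the low-fat diet, and no shared fall was found among the 54 probes tested. With both strains together, the change per week was negative for 29 of 54 probes and positive for 25, with a median of -0.004 per week against 0.00007 over all probes. Past an adjusted p of 0.05 was 1 of 54 (1.85%), where 0.811% of all probes passed, 0.615% as a fall, and 11 had an unadjusted p under 0.05 (20.4%, against 19.4%). Of these 6 were positive (8.83% of all probes) and 5 negative (10.6%). Each strain alone had 0 of 54 past the threshold, as 0% of all probes did; 13 members in C57 mice (24.1%, against 15.7%) and 6 in A/J mice (11.1%, against 14.7%) had an unadjusted p under 0.05. By role, 6 of 11 licensing probes, 6 of 10 kinetochore and checkpoint probes, 4 of 11 Cdk probes, 3 of 6 clamp and polymerase probes, 2 of 5 cyclin probes, 1 of 4 probes of the anaphase-promoting complex and phosphatases and 3 of 7 other Cdc probes had a positive slope.

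On the high-fat diet the slope was positive for 30 and negative for 24 probes, 1 of 54 passed where 1.57% of all probes did, 1.35% as a fall, and 14 had an unadjusted p under 0.05 (25.9%, against 22.3%). Of these 7 were positive (8.33% of all probes) and 7 negative (14%). In C57 mice alone 1 of 54 passed, where 0.55% of all probes did, and in A/J mice 0 of 54, where 0.0262% did, with 11 members at an unadjusted p under 0.05 in each (20.4%, against 19.9% of all probes in C57 and 17.7% in A/J mice). The slope on high-fat minus that on low-fat passed for 0 of 54 and for 0% of all probes, and 1 member, the clamp loader subunit Rfc5, had an unadjusted p under 0.05 (1.85%, against 3.89%), with a difference of 0.06 ± 0.02 per week. Pold2 (0.05) and Cdc42 (0.05) followed, and Pold4 (-0.05), Mcm3 (-0.03) and Cdc25a (-0.03) were at the other end.

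The probe past the threshold belonged to Cdk11b, a kinase tied to transcription and splicing as well as to mitosis, and its fall was not seen with the gene's other probe. On low-fat the first probe (position 9789) had weekly means between -0.29 and -0.02 in C57 and between -0.22 and 0.13 in A/J mice at weeks 1 to 4, and between -2.44 and -0.60 in C57 and between -1.76 and -0.53 in A/J mice at weeks 5 to 11. On high-fat the corresponding ranges for Cdk11b were -0.23 to -0.12 in C57 and -0.22 to -0.03 in A/J mice, and then -2.52 to -0.48 in C57 and -2.25 to -0.98 in A/J mice. The early and late ranges do not overlap in any of the 4. The change of this Cdk11b probe was -0.19 ± 0.03 per week on high-fat (SE, limma, adjusted p 0.0254) and -0.17 ± 0.03 on low-fat (limma, adjusted p 0.0434). On either diet the call was lost without week 1, 3, 4, 7, 10 or 11, with adjusted p up to 0.126 on high-fat and 0.140 on low-fat (limma).

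The other Cdk11b probe (position 9788), which carries the same accession and was measured on more arrays, had weekly means between -0.34 and 0.55 in C57 and between -0.28 and 0.50 in A/J mice on high-fat. On low-fat its limits were -0.45 and 0.41 in C57 and -0.26 and 0.56 in A/J mice. It was lowest at week 9 in all 4 combinations and highest at week 10 or 11. At week 11 on low-fat the first probe stood at -2.44 in C57 and -1.76 in A/J mice, and the other at 0.41 in C57 and 0.56 in A/J mice. The 2 probes therefore give no single answer for Cdk11b. Over weeks 5 to 11 alone, a setting chosen after seeing the data, the first probe's slope was -0.18 on high-fat (limma, adjusted p 0.154) and -0.15 on low-fat (limma, adjusted p 0.194).

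**Figure D4:**
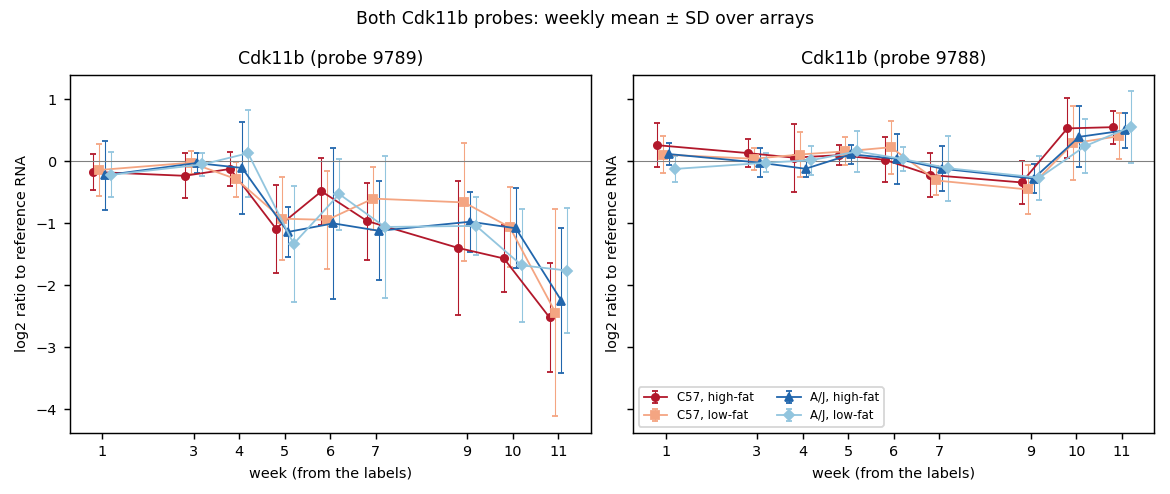
Weekly mean log2 ratio ± SD over arrays of the 2 Cdk11b probes, position 9789 (left) and position 9788 (right), on the same axis, against week, in the 4 combinations of strain and diet. The left probe is lower after week 4 and reaches -2.52 to -1.76 at week 11, while the right probe stays between -0.45 and 0.56.

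Among genes of mitosis the slopes pointed both ways. Cdk1, the kinase that drives entry into mitosis, had a slope of -0.08 ± 0.02 per week on low-fat (limma, adjusted p 0.0931), and Cdc20, which activates the anaphase-promoting complex, of -0.07 ± 0.03 (limma, adjusted p 0.175). Cdk1 had weekly means on low-fat between -0.16 and 0.03 in C57 and between 0.01 and 0.06 in A/J mice at weeks 1 to 4, and between -0.78 and -0.12 in C57 and between -1.06 and -0.25 in A/J mice at weeks 5 to 11. Cenph, a subunit of the inner kinetochore, had the opposite course, with means between -1.11 and -0.68 in C57 and between -1.21 and -0.32 in A/J mice at weeks 1 to 4 and between -0.28 and 0.19 in C57 and between -0.28 and 0.25 in A/J mice later. Its slope was 0.10 ± 0.02 (limma, adjusted p 0.0687), and that of Knl1 was 0.09 ± 0.03 (limma, adjusted p 0.169). On high-fat the slopes were -0.07 for Cdk1 and 0.13 for Cenph. Each thus had the same sign on both diets and did not pass on either.

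Among genes of replication Mcm7, a helicase subunit, had the most positive slope on low-fat, 0.07 ± 0.02 per week (limma, adjusted p 0.0841). Its weekly means were between -0.40 and -0.21 in C57 and between -0.56 and -0.23 in A/J mice at weeks 1 to 4, and between -0.05 and 0.33 in C57 and between -0.31 and 0.41 in A/J mice later. In C57 mice alone the ends were Cdk11b at -0.17, Cdc20 at -0.09 and Orc2 at -0.09, against Knl1 at 0.11, Cenph at 0.09 and Cdk20 at 0.08. In A/J mice alone they were Cdk11b at -0.18, Cdk1 at -0.11 and Cdc42ep2, an effector of Cdc42, at -0.09, against Cenph at 0.11 and Knl1, Mcm7 and Bub3 at 0.07. On high-fat the clamp loader subunit Rfc1 (-0.08), Cenpb (-0.08), Pold2 (0.08) and Mcm7 (0.08) stood at the ends beside Cdk11b and Cenph. None of these but the first Cdk11b probe passed the threshold.

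**Figure D5:**
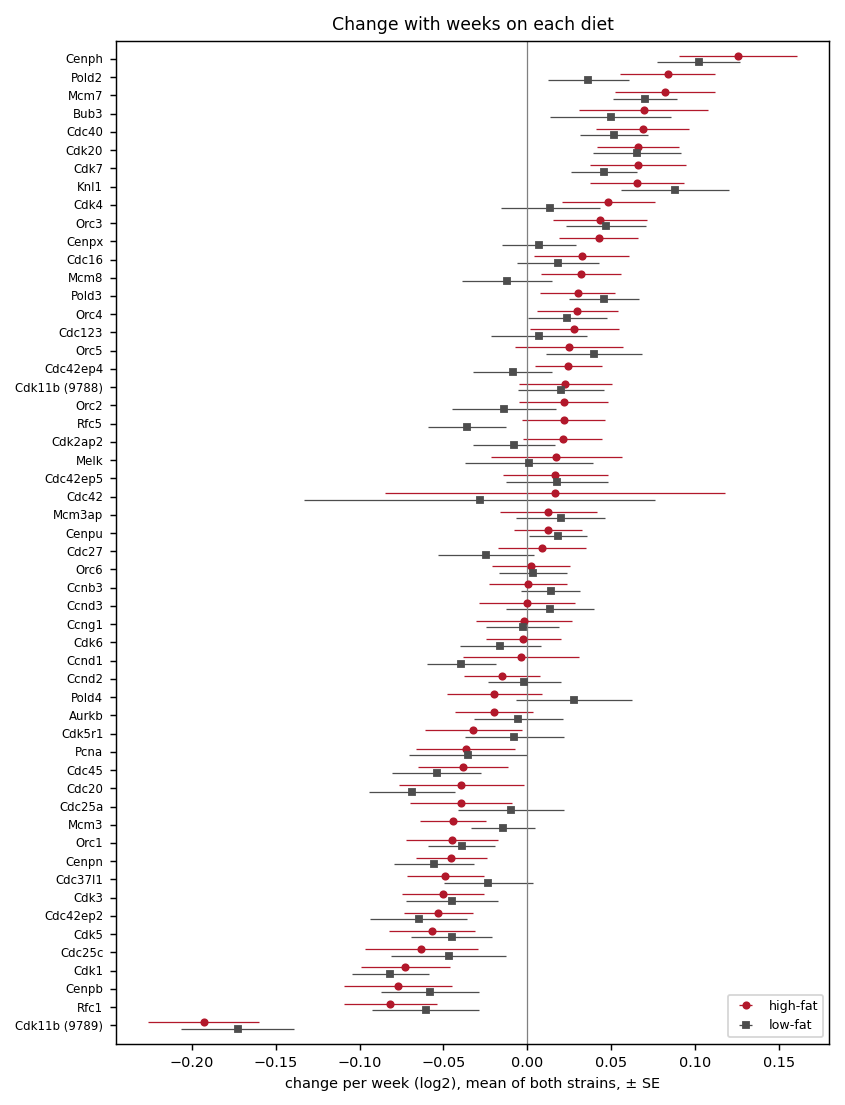
Change per week in log2 ratio (x axis, ± SE), averaged over both strains, for each tested probe on high-fat (red circles) and low-fat (grey squares). The probes spread on both sides of 0, with 30 positive on high-fat and 25 on low-fat, and Cdk11b (position 9789) stands alone at the negative end.

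Some of these slopes were smaller without weeks 1 to 4. Over weeks 5 to 11 the low-fat slopes of Cenph (0.02), Mcm7 (0.03), Cdk1 (-0.05) and Cdc20 (-0.05) were nearer to 0 than over all 9 weeks. In that span, chosen after seeing the data, a different member probe passed, that of Cdc42. Its slope was -0.49 ± 0.04 on high-fat (limma, adjusted p 0.00131) and -0.53 ± 0.07 on low-fat (limma, adjusted p 0.0294). Probes outside the members passed in that span as well, and the counts over all probes are given in the last section. Cdc42 had its highest values mid-course: on high-fat it averaged -1.43 in C57 and -1.80 in A/J mice at week 1, 1.21 and 1.56 at week 6, and -1.98 and -1.06 at week 11. On low-fat Cdc42 averaged -2.24 in C57 and -1.07 in A/J mice at week 1, 1.12 and 0.92 at week 6, and -2.55 and -2.44 at week 11. The course was thus alike in all 4 combinations, and a line through all 9 weeks was flat, at 0.02 on high-fat and -0.03 on low-fat. Week 6 had the fewest probes with a value per array of the weeks used, with medians of 8535.5 on high-fat and 8228 on low-fat. Cdc42 had a value on 75.7% of the arrays used, and its SD within groups, 1.007, was the highest of the members tested. Whether these steps and courses belong to the livers or to the arrays of those weeks was not tested.

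A longer list of cell cycle genes outside the symbols above was counted in the same way; it too was chosen with earlier results known. Of 134 such genes 43 were tested; on low-fat their slopes were positive for 21 and negative for 22, and 1 passed, the kinetochore gene Zwint, at 0.10 ± 0.02 per week (limma, adjusted p 0.0434), where 0.811% of all probes passed. On high-fat the slopes were positive for 17 and negative for 26, where 47.7% of all probes were positive. There 1 passed, the kinetochore gene Spc25, at -0.13 ± 0.02 (limma, adjusted p 0.0253), where 1.57% of all probes passed. The slope on high-fat minus that on low-fat was positive for 10 and negative for 33, where 42.9% of all probes were positive, and 0 passed. None of the 43 passed for diet or strain on either diet, though 2, 0, 2 and 8 had an unadjusted p under 0.05 in the comparisons of diet in C57, of diet in A/J, of strain on low-fat and of strain on high-fat, where 6.32%, 5.42%, 11.7% and 15.2% of all probes did. The proliferation marker Mki67 differed by 0.03 ± 0.11 between diets in C57 mice (limma, adjusted p 0.997).

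Marker lists of cell types were followed beside these results, because in whole liver fewer cells of a type and less RNA per cell cannot be told apart. The mean level of the 7 hepatocyte genes had weekly medians of 1.16 in C57 and 1.23 in A/J mice on high-fat and 1.01 and 1.34 on low-fat, and between strains 3 of them passed on high-fat and 1 on low-fat. On high-fat C57 minus A/J was -0.39 ± 0.10 for Alb, -0.41 ± 0.09 for Trf and 0.38 ± 0.10 for Fgb (limma, adjusted p 0.0275, 0.00313 and 0.0192), and on low-fat it was -0.52 ± 0.09 for Trf (limma, adjusted p 0.000353). Of 3 tested genes of Kupffer cells and leukocytes, 2 of red blood cell precursors, 2 of endothelium, 3 of bile duct and 3 of stellate cells, 0 passed in the low-fat strain comparison or in the low-fat slope. Of 5 tested testis genes 0 passed in either. Their low-fat slopes were negative for 4 and positive for 1, and 3 had an unadjusted limma p under 0.05 (19.4% of all probes). Of 2 tested young liver genes 0 passed in either. On high-fat Gpc3, from that list, had a slope of -0.15 ± 0.03 per week (limma, adjusted p 0.0420), where 1.57% of all probes passed. The mean level of the 2 red blood cell precursor genes had weekly medians of -0.40 in C57 and -0.23 in A/J mice on high-fat and of -0.32 and -0.17 on low-fat. The part of these cell types in the strain differences of Melk, Orc4, Bub3 and Cdc40 was not tested.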

How the data were processed

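The values analysed are the authors' deposited table, 1 column per array and 17280 probe positions. Each deposited value is a linear score, a ratio of liver over pooled reference scaled so that an array's mean is 1; that scale was read from the values, since image analysis, background subtraction and normalization are not given in the sources used here. Of the 435 columns 2 pairs were identical and counted once. Log2 was taken of positive values; 42.4% of cells were empty and 0.251% of the rest were below 0. No signal intensities were used, and precision is limited by the number of weeks and the spread between weekly means.

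Week 8 was left out, as were 4 other arrays correlating below 0.15 with the median of all arrays. Arrays were centred on their median log2 ratio over the 7643 probes tested, those on 70% of arrays and 3 arrays of every group. The model, run in limma 3.58.1 (R 4.3.3), took 1 mean per group of strain, diet and week, with week and the 4 combinations of strain and diet as terms; slopes were straight lines over the 9 weekly means. The Benjamini-Hochberg method adjusted p over the whole table, with a threshold of 0.05. The code was tested on simulated data. The labels do not say whether sample numbers pair arrays. Over 159 same-numbered pairs the median correlation of deviations from group means was 0.006, and 44 exceeded 0.1. Over 1541 pairs with different numbers the median was -0.002, and 377 exceeded 0.1. Numbers are offset between the diets in some weeks, so this cannot tell whether arrays were paired in another order. Symbols come from GEO's platform annotation, which can be old; RefSeq gene identifiers matched 14416 of 14717 probes and changed no symbol, and 6 probes with several symbols were not named. Gene members and gene lists were chosen with earlier results of these data known. Genes named are members past the threshold, the 3 highest and 3 lowest of each comparison, and the member of each role measured on most arrays.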

Additional observations from a re-analysis of the deposited data

Results flagged for a closer look

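Single arrays or weeks of Melk, Orc4 and Cdk11b lay far from the others of their group, by Dixon's gap test at 95%. Chance alone gives about 1 in 20 groups, and 12 groups of arrays, or 11.1% of those tested, and 2 of 12 sets of weekly means were found. No explanation was weighed.

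For Orc4, 4 arrays were low against medians between 0.31 and 0.58: -0.66 in C57 mice on high-fat at week 7, and -0.11, -0.21 and -0.33 in C57 mice on low-fat at weeks 1, 9 and 10. For Melk, 3 arrays of A/J mice were high: 0.31 on high-fat at week 4, where the median was -0.78, and on low-fat 2.14 at week 6 and 2.70 at week 7, where the medians were 0.18 and 0.48. The A/J low-fat group of week 6 had a Melk value on only 4 arrays. All 3 high arrays were kept in the weekly means behind the Melk strain differences.

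For the first Cdk11b probe the weekly mean of week 11 was far below the other weeks, at -2.25 in A/J mice on high-fat and -2.44 in C57 mice on low-fat. Single Cdk11b arrays stood apart at -1.84 (week 4) and -3.59 (week 6) in A/J mice on high-fat, at 0.59 (week 6) and -3.86 (week 7) in A/J mice on low-fat, and at -1.16 (week 1) in C57 mice on low-fat.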

How the results depend on the processing

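The 3 diet counts (C57, A/J and their difference) stayed at 0 members under every alternative run, among them the fit on single arrays with the sample number as a replicate block, as the counts of the C57 low-fat slope and of the difference in slope between diets did at 0 where run. The 2 members of the low-fat strain comparison were 1 without centring (Melk) and 1 for probes on 90% of arrays (Orc4). Melk had a value on 86% of the arrays used and was not tested at 90%. The count was 1 with week 8 included (Melk). It was 4 with single arrays as replicates and no replicate block (Melk, Orc4, Orc2 and Cdk7), where 425 of all probes passed. It was 2 to 3 when each week was left out in turn. Over those 9 fits Melk ran between -0.70 and -0.51 (adjusted p 0.00291 to 0.0349) and Orc4 between -0.33 and -0.30 (adjusted p 0.00984 to 0.0358). The 1 member of the low-fat slope was 0 without centring, 0 for probes on 90% of arrays, 0 from group medians and 0 with week 8. The first Cdk11b probe had a value on 87.1% of the arrays used and was not tested at 90%. The count was 2 after quantile normalization (Cdk1 and Cdk11b), where 285 of all probes passed. It was 3 with week 0 (Cdk1, Cdk11b and Cenph), where 318 of all probes passed. Leaving out each week gave 0 to 1: Cdk11b passed in 3 of 9 fits, with adjusted p from 0.0333 to 0.140, and was lost without week 1, 3, 4, 7, 10 or 11. The 0 of the A/J low-fat slope was 2 with week 0 (Cdk11b and Cenph) and 1 over weeks 5 to 11 (Cdc42). How many of all probes passed the A/J slope under those settings is not given here. These counts therefore cannot be read as particular to the members. The 1 member of the high-fat slope was 0 for probes on 90% of arrays, where the first Cdk11b probe was again not tested. The count was 2 for probes on 50% (Cdk11b and Cenpw) and 0 with week 8. It was 3 with week 0 (Cdc40, Cdk11b and Cenph), where 408 of all probes passed. For weeks 9 to 11 minus weeks 1 to 4 it was 7 (Cdk11b, Cenpb, Cenph, Knl1, Mcm7, Pold2 and Rfc1), where 1069 of all probes passed. Leaving out each week gave 0 to 6, the 6 without week 5, and 0 without week 1, 3, 4, 7, 10 or 11. Over all probes the same fits gave 1 to 793. The filters at 90% and with week 8 test 31 and 26 members in place of 54; other causes were not tested. Melk, Orc4 and the first Cdk11b probe kept their sign under the alternatives run, while the Cdc42 slope on high-fat was 0.02 over all 9 weeks and -0.49 over weeks 5 to 11. The high-fat strain comparison was not rerun under alternatives. Over all probes the low-fat slope count of 62 (15 positive) was 17 without centring, 285 after quantile normalization (116 positive), 39 from group medians, 249 for weeks 9 to 11 minus weeks 1 to 4, 31 over weeks 5 to 11, 318 with week 0 and 0 with week 8. It was also 0 without week 1, 3, 4, 7, 10 or 11, and 122 without week 6. The high-fat slope count of 120 (17 positive) was 250 after quantile normalization (79 positive), 240 weighted by number of arrays, 76 with unlike arrays kept, 64 over weeks 5 to 11, 1069 for weeks 9 to 11 minus weeks 1 to 4, 408 with week 0, 1 with week 8, and 1 to 793 when each week was left out. The low-fat strain count of 183 was 281 after quantile normalization, 425 on single arrays and 36 with week 8. The diet counts of 15 in C57 and 2 in A/J were 119 and 11 on single arrays, 98 and 7 with the replicate block, and 2 and 0 with week 8. Of the 15 in C57 mice 12 were higher on high-fat, against 7 of 12 without centring and 11 of 18 after quantile normalization. The settings of weeks 5 to 11 were chosen after seeing the data.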
